A study of Mus musculus with 6 samples.

Results

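Simple repeats are short units of 1 to 6 letters repeated head to tail, and low complexity stretches are runs dominated by 1 or 2 letters. The read pairs described here join an end annotated as a simple repeat or as low complexity to another RNA, or to another repeat. They were chosen by that annotation at either end, with a sequence of at least 20 nt at both ends, and lines with equal coordinates and strands of both ends were counted as 1 distinct read pair. This gave 50529 distinct read pairs out of 4268003 (63057 lines before collapsing). The series measured RNA contacts in mouse cells with MARIO, in which RNAs held by protein are ligated through a biotin-tagged linker so that each sequenced molecule reads RNA1, linker, RNA2. E14 cells, a mouse embryonic stem (ES) cell line of strain 129/Ola grown without feeder cells, gave all 3 libraries. For the assays ES-1 and ES-2 the cells were exposed to ultraviolet light of 254 nm, which joins RNA to protein, and RNA was cut with RNase I. For ES indirect they were fixed with formaldehyde and EGS, a treatment that links proteins to one another as well, and RNA was sheared by sonication. Duplex-specific nuclease depleted ribosomal RNA from ES-1 and from ES indirect, and ES-2 was depleted with a GeneRead kit. All rest on 1 cell line. Names of 12 of 12 ES cell marker genes were found among the ends of each library, in 964 (ES-1), 375 (ES-2) and 2472 ends (ES indirect), against 42, 18 and 55 ends for 8 fibroblast markers, of which Lum was at 0 in each library, and 31, 67 and 66 ends for 4 neural markers, each of which was found in every library.

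Repeats of this kind are scattered through introns and between genes, and so are carried by many unprocessed and noncoding RNAs. A unit and its reverse complement can pair with each other over many registers, as (AC)n with (GU)n or (A)n with (U)n. The RNA made from telomeres is a simple repeat too: its unit is UUAGGG, complementary to the CCCUAA unit. Repeat names in the annotation follow the + strand of the genome, so a (TG)n locus read from the − strand gives an (AC)n RNA. Units below are written as the RNA reads them, unless the name of a locus is meant.

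The sequences that the results turn on are printed first, all 5′ to 3′ as RNA with T for U. The first set recurred in many low complexity ends. Capitals mark the 20 nt that were used to count each sequence, and the places are the stated ones on mm9.

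Recurrent sequence 1, stated at chr2:173935743-173935769: cgCGCGGCGCCTCGCCTCGGCCggcgc
Recurrent sequence 1, stated at chr2:104334622-104334650: cgCGCGGCGCCTCGCCTCGGCCggcgcct
Recurrent sequence 1, stated at chr11:98200363-98200391: cgCGCGGCGCCTCGCCTCGGCCggcgccc
Recurrent sequence 2, at chr4:121870881-121870916 and chr4:122132514-122132549, − strand: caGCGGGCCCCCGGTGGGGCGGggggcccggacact
Recurrent sequence 3, at chr5:74489283-74489330, + strand: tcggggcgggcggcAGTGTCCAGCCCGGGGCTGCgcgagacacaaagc

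The second set holds read pairs whose ends carry complementary units, among those with the longest such run for their unit and library and with a stretch of at least 12 nt that is an exact reverse complement between the ends. Capitals mark the repeat tract in each end. In the pairs of snoU90 and of Mbtps1, the gene of a Golgi protease, both ends matched the genome at their places and neither fitted the partner's locus.

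(CA)n locus, chr17:50080406-50080471, + strand, RNA1 in ES-2: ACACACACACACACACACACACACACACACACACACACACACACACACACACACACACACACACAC
snoU90, chr3:68889168-68889243, its partner: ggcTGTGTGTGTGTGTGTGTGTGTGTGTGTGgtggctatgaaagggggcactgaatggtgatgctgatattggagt
(TG)n locus, chr3:30577117-30577206, − strand, RNA1 in ES indirect: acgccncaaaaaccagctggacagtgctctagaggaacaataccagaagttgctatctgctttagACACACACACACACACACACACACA
Mbtps1 intron, chr8:122050934-122051033, its partner: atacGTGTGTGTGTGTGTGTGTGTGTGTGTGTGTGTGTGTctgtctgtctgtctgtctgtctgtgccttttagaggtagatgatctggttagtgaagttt
CT-rich locus, chr15:23598088-23598113, + strand, RNA2 in ES-1: CTCTCTCTCTCTCCCCCCgtccgcct
Snora64, chr17:24857726-24857816, its partner: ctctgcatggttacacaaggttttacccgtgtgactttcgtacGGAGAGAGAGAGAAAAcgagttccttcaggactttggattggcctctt
(T)n locus, chr10:36804096-36804185, − strand, RNA1 in ES-2: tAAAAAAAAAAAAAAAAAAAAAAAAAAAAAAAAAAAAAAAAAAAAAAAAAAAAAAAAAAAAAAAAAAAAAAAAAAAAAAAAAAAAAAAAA
L1Md_T, chr10:71759953-71760052, its partner: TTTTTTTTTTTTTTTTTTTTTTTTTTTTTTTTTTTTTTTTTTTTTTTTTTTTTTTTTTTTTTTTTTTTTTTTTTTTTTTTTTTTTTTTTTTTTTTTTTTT

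ES-2 held the largest share of repeat read pairs and ES-1 the smallest. Repeat ends were in 13708 of 1977852 distinct read pairs of ES-1 (0.693%, 95% Wilson interval 0.682 to 0.705), in 22445 of 816796 of ES-2 (2.75%, 2.71 to 2.78) and in 14376 of 1473355 of ES indirect (0.976%, 0.960 to 0.992). No test between the groups was made. The first place of ES-2 depended on the settings. It was lost when the recurrent sequences described below were left out, with 0.296% in ES-1, 0.581% in ES-2 and 0.908% in ES indirect, and when both ends had to match the genome, with 0.449%, 0.945% and 0.955%. Within a library the share was alike in both sequencing runs of ES-1 (0.685% and 0.700%) and of ES-2 (2.75% and 2.74%), but was 1.20% and 0.637% in those of ES indirect. Only 72 of these read pairs had the same coordinates in ES-1 and ES-2. Read pairs were called distant if their ends lay on different chromosomes or more than 2000 bp apart, and local otherwise. Of the repeat read pairs, 12540 were distant in ES-1 and 1168 local. ES-2 held 21998 distant and 447 local ones. ES indirect was the only library in which local read pairs were the larger part, with 6747 distant and 7629 local.

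Not every stated place held the sequence. Local repeat ends matched mm9 at their place, with up to 15% mismatches, in 100% of the tested cases in ES-1 and ES-2. Distant repeat ends matched in 57.2% of cases in ES-1, 29.5% in ES-2 and 79.1% in ES indirect. Those with a recurrent sequence, described below, matched in 62.3%, 30.2% and 79.2%, and the other distant repeat ends in 48.6%, 26.6% and 79.1%. Ends of all kinds matched in 93.4%, 82.4% and 94.2%. Distant repeat ends were also short, with medians of 30 nt (ES-1), 28 nt (ES-2) and 52 nt (ES indirect), where local ones had medians of 90 to 100 nt. A low match, a short end and the library moved together here, and their part in the results below was tested only by leaving out read pairs without a match or with an end under 30 nt.

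By unit, GC-rich stretches led in the ultraviolet libraries and (AC)n with (GU)n in ES indirect. GC-rich ends made up 60.9% of the repeat read pairs of ES-1 (8349) and 82.1% of those of ES-2 (18420), but 8.98% of those of ES indirect (1291). The (AC)n/(GT)n class, the commonest dinucleotide repeat of mammalian genomes, held 708, 358 and 2154 read pairs in the same order. The AG-rich/CT-rich class held 841, 547 and 1674, and AT-rich ends 278, 144 and 1638. The next classes were (AG)n/(CT)n with 1476 read pairs in all, C-rich/G-rich with 1265, (A)n/(T)n with 1025, A-rich/T-rich with 593, (AAAC)n with 557, (CCCCG)n with 553, (AAAG)n with 509 and (AAG)n with 391, each counted together with its reverse complement. Classes differed in how far apart their ends lay. In ES indirect, local read pairs made up 81.4% of the AT-rich and 59.4% of the (AC)n/(GT)n class, against 15.6% of the GC-rich one.

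The GC-rich ends were largely a few sequences seen again and again. Cores of 20 nt held by at least 100 distant repeat ends were collected, and the tandem ones among them were set aside, which left 23 recurrent sequences. They were in 62.4% of the distant repeat ends of ES-1, 80.4% of those of ES-2 and 14.7% of those of ES indirect (26497 of 41285 in all). With the recurrent sequences set aside, 1100 distant GC-rich ends were left in ES-1, 1547 in ES-2 and 237 in ES indirect.

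Recurrent sequence 1 was in 13102 distant repeat ends, of which 2335 were in ES-1, 10707 in ES-2 and 60 in ES indirect. That is 48.7% of all distant repeat ends of ES-2. It stood at RNA2 in 91.3% of cases, had a median length of 28 nt, and differed from its stated place by a median of 5 bases, so that 0.0153% of these ends matched within 15%. Its stated place followed its last bases, as the first 3 printed sequences show: 7456 ends, most often 27 nt long, were placed at chr2:173935743-173935769 and 4487, most often 29 nt long, at chr2:104334622-104334650. The same 20 nt were found in 24212 ends of any annotated type. Of these 8260 were named as protein-coding, including 3588 as Suv420h2, a histone H4 methyltransferase gene, 1104 as Neurl1b, 958 as Park7 and 606 as Znrf2. A further 1746 were unannotated, and none of the 24212 was named ribosomal. Its 20 nt have 1 exact copy in mm9, which is not described here, and no other reference was searched, so these names do not give its source. The same sequence thus carried a GC-rich name and several gene names.

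Recurrent sequence 2 behaved differently at its place. It was in 7604 distant repeat ends (2982, 4031 and 591 in ES-1, ES-2 and ES indirect), of which 99.6% matched. It lies identically at 2 places on chromosome 4, in exons of the pseudogenes Gm12896 and Gm12895 but on the opposite strand, and its ends were divided nearly evenly between them, with 3824 and 3780. Recurrent sequence 3 was in 1571 ends (958, 547 and 66), all of which matched an exon of 2700023E23Rik, a processed transcript, on its own strand. Of the 23 recurrent sequences, 15 had no exact copy anywhere in the genome. Of these sequences 9 were also found in ends that the annotation names ribosomal, 7 of these in at least 50 such ends, among them 1 that was in 57071 ribosomal ends and in 161 repeat ends.

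**Figure D1:**
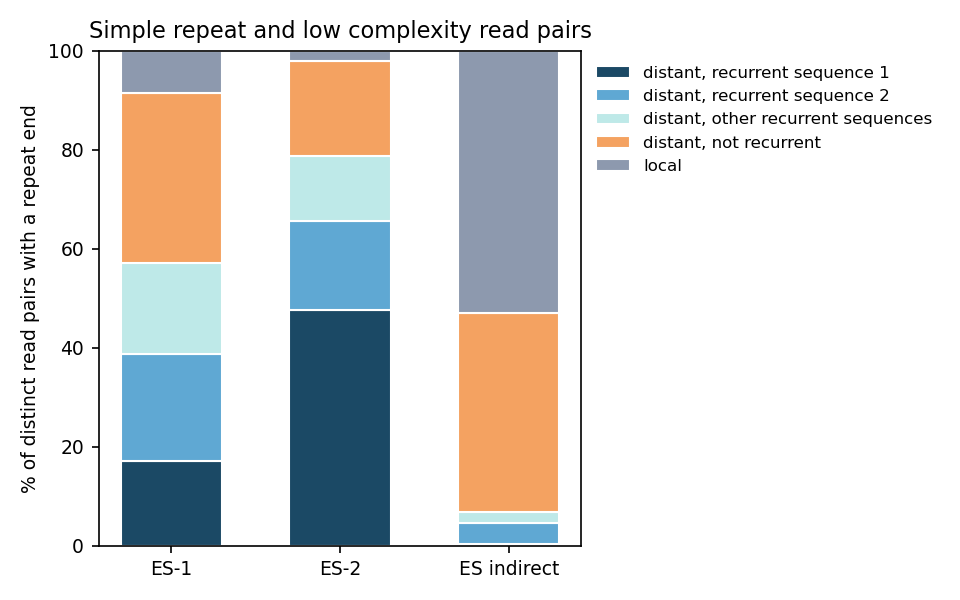
Make-up of the distinct repeat read pairs of each library, in percent on the vertical axis. Stacked bars give distant read pairs with recurrent sequence 1, with sequence 2, with the other recurrent sequences and with none, and local read pairs. Recurrent sequences fill most of the ES-2 bar, while local read pairs are the largest part of the ES indirect bar.

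In ES-1 and ES-2 the commonest types across the linker were those that fill the library, and several rarer types differed more. Partner here means the end joined to a distant repeat end, and its type was set against the ends of all other distant read pairs of that library (Fisher's exact test over read pairs, Benjamini-Hochberg adjusted over types and libraries). Such p-values describe the libraries and hold no replicate error. The share of types called in either direction was 40% of 10 in ES-1, 54.5% of 11 in ES-2 and 90.9% of 11 in ES indirect. In ES-1, ribosomal repeats were 55.9% of partners against 57.7% of other ends (Fisher's exact test, adjusted p = 6.23e-05), small nucleolar RNAs (snoRNAs), which guide the modification of other RNAs, were 22.7% of both, and protein-coding genes were 9.03% against 7.90% (adjusted p = 9.94e-06). In ES-2, ribosomal repeats were 57.2% against 59.6% (Fisher's exact test, adjusted p = 5.24e-12), snoRNAs 9.91% against 11.8% (adjusted p = 1.29e-18) and protein-coding genes 14.9% against 13.5% (adjusted p = 1.64e-09). These 3 types lay between 0.837 and 1.14 times their share among other ends. Rarer types lay further away. Short interspersed elements (SINEs) were 1.52 times as frequent among ES-1 partners (Fisher's exact test, adjusted p = 0.00151), and ends named as ribosomal RNA 0.797 times (adjusted p = 0.00181). In ES-2, transfer RNAs were 1.34 times as frequent (Fisher's exact test, adjusted p = 3.00e-07) and ends named as ribosomal RNA 1.29 times (adjusted p = 3.09e-05), but both calls were lost against other ends of the same side of the linker (1.04 and 1.11 times) and for repeat ends that carry their unit (0.877 and 0.981 times).

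Without the recurrent sequences the small ES differences moved. Ribosomal repeats were then 1.01 times as frequent in ES-1 (Fisher's exact test, adjusted p = 0.606), so that the call was lost. Ribosomal repeats were then 1.08 times as frequent in ES-2 (Fisher's exact test, adjusted p = 4.57e-11) and protein-coding partners 0.929 times (adjusted p = 0.0939), both against the direction above. Against other ends of the same side, ribosomal repeats in ES-2 were likewise 1.06 times as frequent (Fisher's exact test, adjusted p = 3.75e-22) and protein-coding genes 1.01 times (adjusted p = 0.498). Without the recurrent sequences, snoRNA partners fell to 0.782 times in ES-1 (Fisher's exact test, adjusted p = 3.14e-16). In ES indirect the differences were larger. Ribosomal repeats were 18.6% of partners against 39.5% of other ends, and ends named as ribosomal RNA were 12.7% against 17%. Protein-coding genes, introns included, were 39.7% against 22.4% (1.77 times). SINEs were 3.41% against 1.5% (Fisher's exact test, adjusted p = 2.41e-27) and pseudogenes 0.771% against 0.318% (adjusted p = 7.84e-08), while small nuclear RNAs were 0.800% against 1.87% (adjusted p = 2.43e-12). An end also fitted the partner's locus, as defined below, for 37.3% of the distant repeat read pairs of ES indirect. Other distant read pairs of that library stood at 29.1%. For distant repeat read pairs the share was 3.62% with ES-1, while ES-2 had 1.53%. Whether the ES indirect differences by type hold without such read pairs was not tested.

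**Figure D2:**
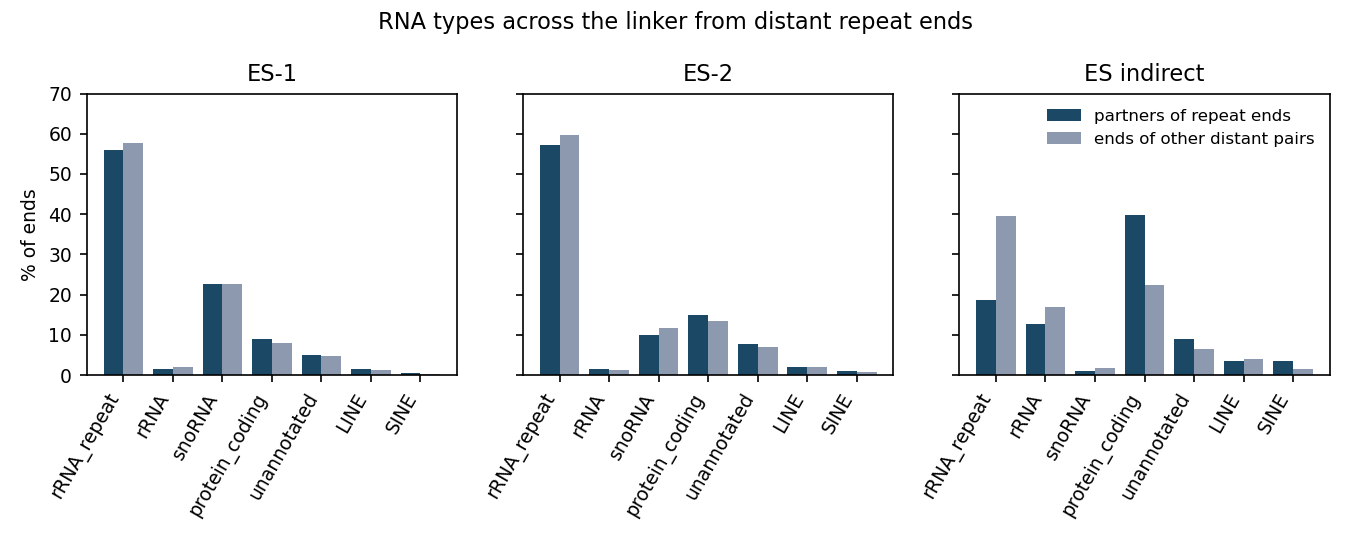
RNA types across the linker from distant repeat ends (dark) and of the ends of other distant read pairs (grey), in percent of ends on the vertical axis, for ES-1, ES-2 and ES indirect. The paired bars of the commonest types are close in ES-1 and ES-2, and in ES indirect the ribosomal bar is lower and the protein-coding bar higher for partners of repeats.

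The partner names with most read pairs differed between libraries. Over the 3 libraries together Snora81, a snoRNA, was the non-ribosomal partner with most, at 183 in ES-1 (1.46% of partners, 1.35% of other ends), 112 in ES-2 (0.509% against 0.617%) and 1 in ES indirect. GC-rich loci were next, with 15, 226 and 3, and led in ES-2. They have no share among other ends, since read pairs with a repeat end are not counted there. Snora73b had 112, 105 and 0, Snora73a 108, 81 and 1, and Snora33 103, 72 and 2. A separate entry named SNORA81 had 52, 103 and 0, with 0.415% against 0.540% of other ends in ES-1 and 0.468% against 0.691% in ES-2. L1Md_T, a young family of LINE-1 elements, had 47, 78 and 35, with 0.375%, 0.355% and 0.519% of partners against 0.408%, 0.399% and 1.08% of other ends. Most of the snoRNA partners faced recurrent sequences: leaving those out took Snora81 from 183 to 43 in ES-1 and from 112 to 19 in ES-2.

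The central question was whether a partner carries the reverse complement of the unit. An end was said to carry a unit if it held a perfect tandem run of at least 12 nt, or, for low complexity names, 12 nt made of their letters (10 of 12 for names of 1 letter). Low complexity names were thus matched by their letters only, and such a match need not be an exact reverse complement. Of the distant repeat ends, 56.4% in ES-1, 37.2% in ES-2 and 57.8% in ES indirect carried their own unit. Complementary partners were rare with runs of at least 12 nt. Leaving out self-complementary units, 24 of 1728 ends in ES-1 faced a complementary partner (1.39%, 0.935 to 2.06), 18 of 1042 in ES-2 (1.73%, 1.10 to 2.71) and 54 of 2880 in ES indirect (1.88%, 1.44 to 2.44). An exact reverse complement of at least 12 nt between the ends was found for each of the complementary partners of simple repeat ends (11, 15 and 14), but for 1 of 13, 0 of 3 and 3 of 40 of those of low complexity ends. Over the 1570, 939 and 2637 ends whose unit had at least 10 carrying ends, complementary partners numbered 24, 18 and 53. Partners of the same RNA types would give 6.69, 2.59 and 23.7, from how often other ends of each type hold the unit, which makes ratios of 3.59, 6.95 and 2.24. The other ends include no simple repeat or low complexity ends, so partners of these types were given the rate of all other ends. For them the ratios are not matched by type. The share over ES-1 with ES-2 was 1.52% (1.12 to 2.04), and its order against ES indirect turned with the settings. It was 1.51% against 0.669% for simple repeats only. It was 0.754% against 3.04% when read pairs that fit the partner's locus, as defined below, were left out. That setting removes read pairs with a shared unit by construction, so its values are no test of the order. ES indirect is 1 library, so no test between the groups was made.

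Partners with the same unit were commoner in ES-1 and ES indirect. They were 154 of the 1728 ends in ES-1 (8.91%, 7.66 to 10.3), 25 of the 1042 in ES-2 (2.40%, 1.63 to 3.52) and 674 of the 2880 in ES indirect (23.4%, 21.9 to 25). Over the 1570, 939 and 2637 ends tested by type they numbered 147, 10 and 652, which is 19.9, 3.92 and 25.1 times the number from other ends by type. As above, partners that are repeats themselves were given the rate of all other ends, so for them these ratios are not matched by type. Of partners with only 1 of the 2 kinds, 12.6% were complementary in ES-1 (two-sided exact binomial test, p = 4.25e-25), 41.9% in ES-2 (p = 0.36) and 7.30% in ES indirect (p = 8.76e-138). The ES-2 value turned to 61.7% with runs of at least 8 nt (two-sided exact binomial test, p = 0.00147) and was 28.1% with every line counted (p = 6.17e-04). These tests take read pairs as the unit and describe each library alone. The intervals of the 3 libraries do not overlap for same-unit partners, but they cover counting error only, and no test between libraries was made. Sequencing runs, crosslink and the way the RNA was cut all differ between ES and ES indirect and cannot be told apart here. In each run the order held, with same-unit partners at 8.15% and 9.60% (ES-1), 1.97% and 3.01% (ES-2), and 21.8% and 25.1% (ES indirect). Complementary partners had no such order, with 1.22% and 1.55% (ES-1), 0.984% and 2.78% (ES-2), and 2.20% and 1.53% (ES indirect).

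**Figure D3:**
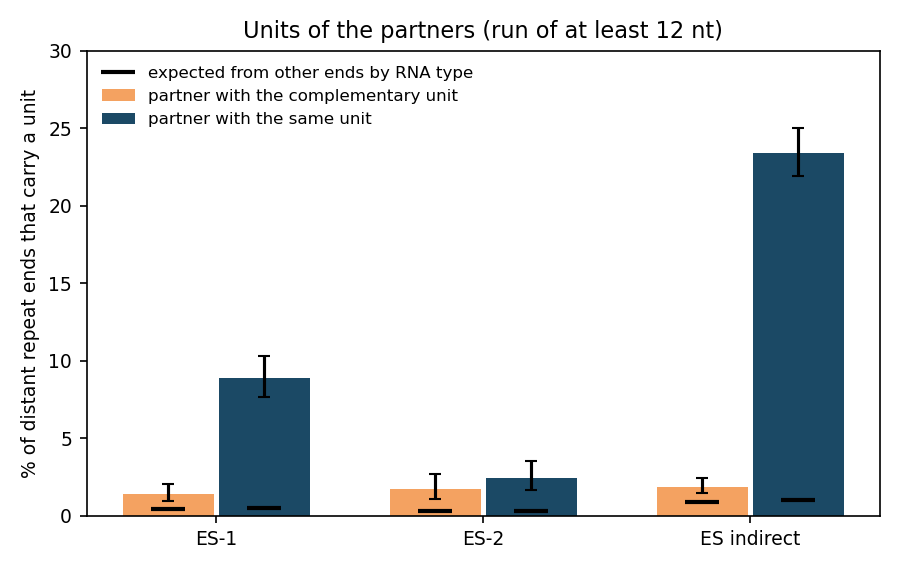
Percent of distant repeat ends that carry a unit and face a partner with the complementary unit (orange) or the same unit (dark), in ES-1, ES-2 and ES indirect. Bars of error are 95% Wilson intervals. Black ticks give the percent from other ends by RNA type, and from all other ends for partners that are repeats. Same-unit partners exceed complementary ones in ES-1 and ES indirect, and in ES-2 the intervals overlap.

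Many same-unit read pairs could be placed at 1 locus. A read pair was counted so if the sequence of either end fitted within 2000 bp of its partner's place, on either strand and with up to 15% edits. This held for 131 of 152 read pairs with only the same unit in ES-1 (86.2%, 79.8 to 90.8), 19 of 25 in ES-2 (76.0%, 56.6 to 88.5) and 642 of 673 in ES indirect (95.4%, 93.5 to 96.7). It held for 10.2%, 5.11% and 39.2% of repeat ends facing neither unit, and for 6.82%, 6.74% and 29.1% of other distant read pairs. Sharing a tandem unit itself makes such a fit easier, so the high share is in part set by how same-unit partners were chosen. The distance between ends is uncertain for read pairs that fit. Complementary read pairs fitted the partner's locus in 9 of 22 cases in ES-1 (40.9%, 23.3 to 61.3), 14 of 18 in ES-2 (77.8%, 54.8 to 91.0) and 12 of 53 in ES indirect (22.6%, 13.5 to 35.5). Leaving out every such read pair took same-unit read pairs from 152 to 21 in ES-1 and from 673 to 31 in ES indirect, and complementary ones from 22 to 13 and from 53 to 41. As this removes read pairs with a shared unit by construction, the counts left say nothing of an excess of either kind.

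**Figure D4:**
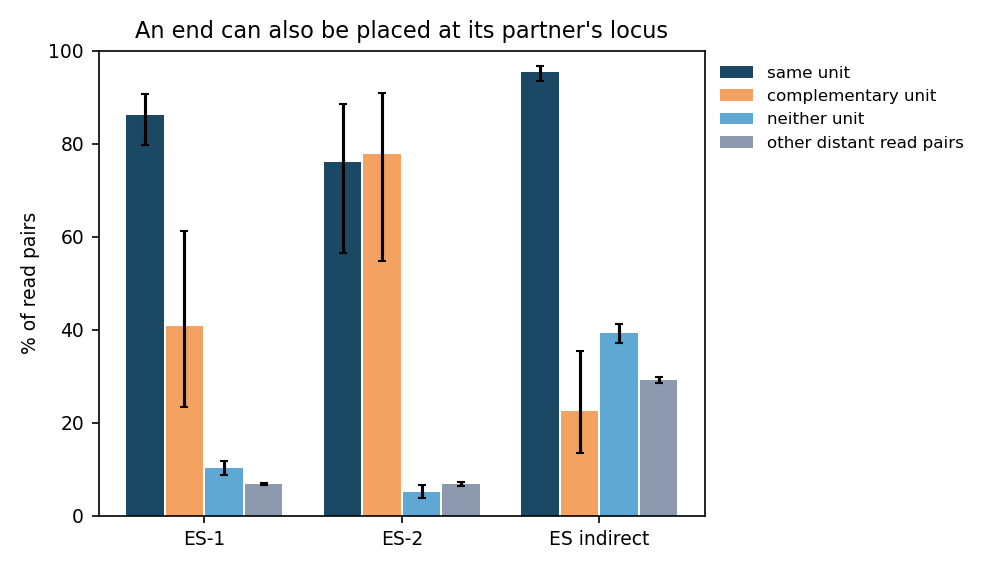
Percent of distant read pairs in which an end can also be placed within 2000 bp of its partner, with 95% Wilson intervals, for repeat ends facing the same, the complementary or neither unit and for other distant read pairs. Same-unit read pairs stand at 76.0% to 95.4% in the 3 libraries, and other distant read pairs at 6.74% to 29.1%.

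By unit, few of those tested had more complementary partners than other ends of the library supply. With at least 10 carrying ends per unit, 5 of 25 units were called in ES-1 (20%), 4 of 18 in ES-2 (22.2%), 6 of 46 in ES indirect (13.0%) and 6 of 32 in ES-1 with ES-2 (18.8%; Fisher's exact test, Benjamini-Hochberg adjusted p under 0.05). Self-complementary units are included in these counts. The other ends come from read pairs without a repeat end, which takes out many tracts of these units, while partners can be repeats. Calls by unit are thus in part set by that choice. Some units were called in several libraries. The (A)n ends faced (U)n in 9 of 205 cases in ES-1 (Fisher's exact test, adjusted p = 1.14e-20), 6 of 31 in ES-2 (adjusted p = 7.20e-20) and 4 of 49 in ES indirect (adjusted p = 9.07e-08), against 0.00971%, 0.00451% and 0.0536% of other ends. In the (A)n/(T)n class L1Md_T was the partner in 6, 6 and 4 complementary read pairs, and the longest one of each library was stated within chr10:71759951-71760079, a run of T of which an example is printed above. In those examples the (A)n end also fitted the L1Md_T place on the other strand. No (A)n call was left in any library when read pairs that fit the partner's locus were left out. A run of A fits a run of T on the other strand by its letters alone. This setting is thus no test, and the place of such ends is uncertain.

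The dinucleotide pair came next. (AC)n ends faced (GU)n in 6 of 31 cases in ES-2 (Fisher's exact test, adjusted p = 2.21e-18) and 4 of 73 in ES indirect (adjusted p = 3.81e-06), and (GU)n ends faced (AC)n in 3 of 36 (adjusted p = 1.80e-09) and 3 of 423 (adjusted p = 5.60e-05). In ES-1 none of 52 (AC)n ends and none of 174 (GU)n ends had a complementary partner, which allows up to 5.77% and 1.72%. Of the (AC)n ends with a complementary partner, 1 in ES-2 and 3 in ES indirect could not be placed at the partner's locus. Among the ES-2 cases is the printed (AC)n end opposite the GU run that opens snoU90, a small Cajal body RNA. For (AC)n, the ES-2 call was kept with runs of at least 16 nt, at 3 of 24 ends. With both ends at least 30 nt it rested on 1 of 15 ends. For (GU)n, the ES-2 call was lost with runs of at least 16 nt and with both ends at least 30 nt. Without read pairs that fit the partner's locus, a setting that is no test, (GU)n was called in neither library. CU-rich ends faced AG-rich ones in 9 of 216 cases in ES-1 (Fisher's exact test, adjusted p = 0.0150) and 25 of 375 in ES indirect (adjusted p = 6.37e-04), where 1.5% and 2.96% of other ends were AG-rich. In ES-2 it was 1 of 224 (0.446%, against 0.717% of other ends). The ES-1 call was lost with runs of at least 8 or 16 nt, over 100000 bp, with a genome match and without recurrent sequences. The ES indirect call was lost with 8 nt and without ribosomal partners. The printed CU-rich end opposite Snora64, a snoRNA that guides pseudouridylation, has this letter match, but it did not match its stated place and holds recurrent sequence 17, which has no exact copy in the genome. In ES indirect, 5 of the complementary partners of this class lay in Rn45s, the ribosomal precursor.

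Self-complementary names were also matched by letters. Their complementary and same unit are the same letters, so these tests cannot tell complementary from same-unit partners. GC-rich ends faced GC-rich runs in 7.74% of 5300 cases in ES-1 and 10.7% of 7137 in ES-2, against 6.46% and 9.22% of other ends, and in 8.64% of 937 in ES indirect against 8.08%, which was not called. Without ribosomal partners these were 4.22% against 1.83% in ES-1, 8.69% against 6.13% in ES-2 and 6.71% against 1.49% in ES indirect, called in each. The ES-1 call was lost without recurrent sequences, and the ES-2 call with a genome match and with runs of at least 16 nt. AU-rich ends faced AU-rich runs far more often than other ends did, in 5 of 47 cases in ES-1 (10.6% against 0.442%, Fisher's exact test, adjusted p = 9.13e-06) and 10 of 81 in ES indirect (12.3% against 0.613%, adjusted p = 6.05e-10). Other ends by RNA type, or all other ends for partners that are repeats, would give 0.453 and 0.934 of these partners. Of these partners, 3 in ES-1 and 3 in ES indirect were in read pairs that could not be placed at the partner's locus, and with runs of at least 16 nt neither call was left. G-rich ends faced C-rich ones in 2 of 42 cases in ES-1 (Fisher's exact test, adjusted p = 0.00531), and in ES indirect 1 of 46 (CCU)n ends faced (AGG)n (adjusted p = 0.0212). The G-rich call was lost with runs of at least 8 or 16 nt, with both ends at least 30 nt and with a genome match. With runs of at least 16 nt the (CCU)n call was lost too. Calls that rest on 1 to 3 read pairs are only as firm as those few molecules.

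Same-unit partners were called for more units in ES-1 and ES indirect, but not in ES-2. The share was 65.2% of 23 units in ES-1, 17.6% of 17 in ES-2, 81.8% of 44 in ES indirect and 56.7% of 30 in ES-1 with ES-2. As above, the other ends leave out read pairs with a repeat end, so these calls too are in part set by that choice. Pyrimidine and purine tracts led in ES indirect. Partners with the same unit faced 76 of 93 (CUU)n ends (81.7%), 61 of 120 (CUUU)n ends (50.8%), 39 of 75 (AAG)n ends (52.0%), 76 of 209 (CU)n ends (36.4%) and 13 of 13 (AAGGAG)n ends. In ES-1 they faced 56 of 154 (CU)n ends (36.4%), but in ES-2 1 of 65 (1.54%, Fisher's exact test, adjusted p = 0.0150). By contrast, (GU)n ends faced (GU)n in 4 of 174 cases in ES-1 (2.30%) and 32 of 423 in ES indirect (7.57%), and 0 of 115 (CGG)n ends faced (CGG)n in ES-1.

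Partner type divided the 2 kinds of partner. In ES-1 with ES-2, complementary partners were 13 of 87 LINE partners (14.9%), 11 of 417 protein-coding ones (2.64%), 8 of 372 snoRNA ones (2.15%) and 2 of 1442 ribosomal repeats (0.139%). LINEs stood at 7 of 47 in ES-1 and 6 of 40 in ES-2, of which 6 and 6 were the L1Md_T runs named above. In ES indirect the shares were 4.27% of 117 LINE partners, 2.24% of 1385 protein-coding ones, 2.65% of 226 named as ribosomal RNA and 0.635% of 315 ribosomal repeats. None of 223 unannotated partners there was complementary, which allows a share of up to 1.35%. Same-unit partners were most of the partners annotated as simple repeats themselves, 43 of 55 in ES-1 (78.2%), 10 of 16 in ES-2 (62.5%) and 145 of 226 in ES indirect (64.2%). Among protein-coding partners they were 32.2% of 239 in ES-1, 3.37% of 178 in ES-2 and 29.5% of 1385 in ES indirect. The ES-1 ones included 15 read pairs to Igbp1, a regulator of protein phosphatases, and 10 to Hsp90aa1, the inducible cytosolic HSP90 chaperone.

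**Figure D5:**
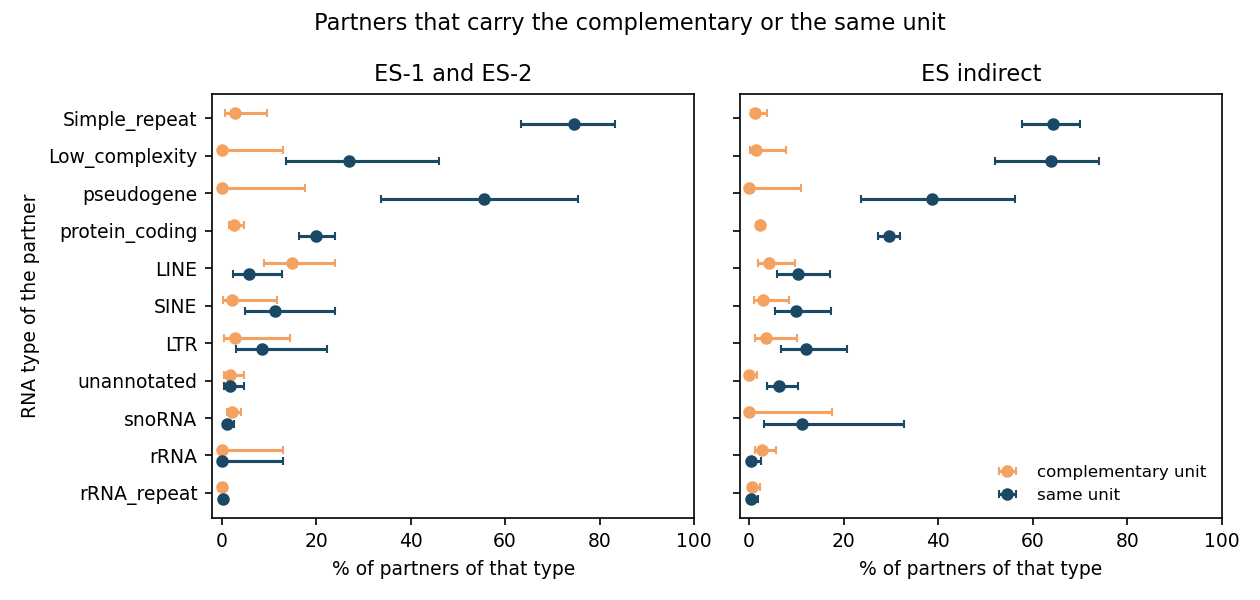
Percent of partners of each RNA type that carry the complementary unit (orange) or the same unit (dark), with 95% Wilson intervals, for ES-1 with ES-2 (left) and ES indirect (right). Same-unit shares are highest for simple repeat, low complexity and pseudogene partners, and LINE partners have the highest complementary share in ES-1 with ES-2.

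A search that did not use the units was also made. It covers the same read pairs, those of (A)n included, so it can find the complementary partners above again and is not independent of them. The other distant read pairs hold no repeat end by selection. Any stretch of at least 12 nt complementary between both ends was found in 0.483% of read pairs with a simple repeat end outside the recurrent sequences in ES-1, 1.01% in ES-2 and 0.660% in ES indirect, against 0.0702%, 0.176% and 0.133% of other distant read pairs. Low complexity ends had one in 0 of 2225 cases in ES-1, which allows up to 0.135%, in 1 of 2445 in ES-2 (0.0409%) and in 9 of 1820 in ES indirect (0.495%). A shared stretch of the same sense was found in 6.51%, 1.87% and 21.9% of simple repeat read pairs, against 1.34%, 1.02% and 2.79% of others, and in 1.66%, 0.491% and 15.3% of low complexity ones. Read pairs with a recurrent sequence had a complementary stretch in 1 of 7828 cases in ES-1, 2 of 17680 in ES-2 and 0 of 989 in ES indirect, which allows up to 0.303%.

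The strand of the repeats, counted outside the recurrent sequences, was uneven in many classes. Distant dinucleotide ends read (GU)n rather than (AC)n in 174 of 226 cases in ES-1 (77.0%, 71.1 to 82.0), 36 of 67 in ES-2 (53.7%, 41.9 to 65.1) and 423 of 496 in ES indirect (85.3%, 81.9 to 88.1). Local ones were nearer to balance, with 41.9%, 47.5% and 58.0% (GU)n. Ends read (CU)n rather than (AG)n in 85.9% of 156 cases in ES-1, 72.2% of 36 in ES-2 and 69.9% of 292 in ES indirect, against 61.8%, 46.2% and 55.8% of local ones. Distant (A)n/(T)n ends read (A)n in 205 of 226 cases in ES-1 (90.7%, 86.2 to 93.8) and 31 of 31 in ES-2, but in 49 of 113 in ES indirect (43.4%, 34.6 to 52.6). Local ones read (A)n in 80.0% of 35 cases in ES-1 and 71.8% of 227 in ES indirect, so that they were no nearer to balance in ES indirect. These shares were not tested against each other.

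Telomeric repeats were few and did not face their complement. Distant ends carrying the unit numbered 20 in ES-1, 5 in ES-2 and 28 in ES indirect. They read CCCUAA in 18 of the 20 in ES-1, but UUAGGG, the sense of telomeric RNA, in 5 of 5 in ES-2 and 24 of 28 in ES indirect. Partners with the same unit faced 17 of 20, 4 of 5 and 2 of 28. No complementary partner was seen in any library, which allows shares of up to 15% in ES-1, 60% in ES-2 and 10.7% in ES indirect. Repeat ends that overlap the gene of telomerase RNA, the template of telomere synthesis, were in 80, 19 and 90 read pairs, of which 63, 12 and 8 were distant. None of them joined an end named as a telomeric repeat. Its distant partners were ribosomal in 35, 9 and 5 cases.

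Pairs of RNAs were then tested with Fisher's exact test and Benjamini-Hochberg adjustment, the test named by the study. The one-sided form, the minimum of 3 distinct read pairs, the limit to distant non-ribosomal read pairs and the test of each library by annotated name were set here. Of the pairs with a repeat name, 44 of 2088 were called in ES-1 (2.11%, where 1.17% of all pairs were called), 40 of 3376 in ES-2 (1.18%, 0.848% of all), 126 of 3136 in ES indirect (4.02%, 3.18% of all) and 93 of 4926 in ES-1 with ES-2 (1.89%, 1.05% of all). Among pairs with at least 3 read pairs, which alone can be called, the shares were 16.4% against 12.3% of all such pairs in ES-1, 9.35% against 18.7% in ES-2, 82.9% against 66.9% in ES indirect and 14.3% against 12.3% in ES-1 with ES-2, so that ES-2 turned. The lists of the ultraviolet assays had 3 called repeat pairs in common, which is 6.82% and 7.50% of their lists, where all called pairs had 166 in common (13.9% of 1192 and 34.1% of 487). Of the repeat pairs only the pair of GA-rich with CT-rich loci was called in all 3 libraries. A repeat name covers many loci. GA-rich with CT-rich in ES indirect had 27 read pairs from 18 repeat loci, and in each of the 27 an end also fitted its partner's locus.

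Most of the other called pairs with most read pairs were of 3 kinds. Recurrent sequences made up 57 of 60 read pairs of GC-rich with tRNA-Lys-AAG in ES-2 (Fisher's exact test, adjusted p = 0.00583) and 23 of 24 of GC-rich with SNORA26 in ES-1 (adjusted p = 0.00823). Ends that also fitted the partner's locus made up 13 of 13 read pairs of (GA)n with (TC)n in ES-1, 11 of 11 of GA-rich with Hsp90aa1, 10 of 10 of (GA)n with Igbp1, 8 of 8 of (CA)n with Scarna9 and, in ES indirect, 17 of 17 of AT-rich with the SINE PB1 and 10 of 10 of (CTG)n with Rplp0, a ribosomal stalk protein gene. (TC)n with (GA)n in ES indirect was mixed, as 11 of its 21 read pairs fitted the partner's locus, 14 shared the unit and 0 held a recurrent sequence. The third kind was neither. (TG)n with Mrfap1 had 9 read pairs in ES-1 (Fisher's exact test, adjusted p = 1.02e-21), from 1 repeat locus and with 0 complementary runs, and (CA)n with SNORD74 had 9 from 9 loci (adjusted p = 0.00247), also with 0. (TG)n with snoU90 was mostly of the second kind. It was called in each ultraviolet assay, with 11 (ES-1) and 5 (ES-2) read pairs over 13 loci. Of these 16, 13 also fitted the snoU90 locus and 1 was complementary.

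Both lists of RNAs examined were rare among partners. Of the 10 nuclear-retained noncoding RNAs, only Malat1, Meg3 and Airn were named at any distant end, so the list's values rest on these. They were partners in 4 read pairs of ES-1 (0.0319%, against 0.0200% of other ends), 0 of ES-2 (up to 0.0136%, against 0.0111%) and 11 of ES indirect (0.163%, against 0.0777%). Malat1 had 4 of these in ES-1 and 5 in ES indirect, and Meg3 had 6 in ES indirect (14.9 times its share of other ends). These shares were not tested. The mRNAs of 15 proteins that bind simple-sequence RNA were partners in 2, 13 and 3 read pairs (0.0159%, 0.0591% and 0.0445%, against 0.0303%, 0.0356% and 0.0496%), among them Khsrp with 3 in ES-2.

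Local read pairs mostly kept the order of 1 transcript. Their ends lay on the same RNA strand in 100% of cases in ES-1 and ES-2 and 99.9% in ES indirect, with RNA1 upstream of RNA2 in 96.2%, 96.6% and 97.1%, where other local read pairs had this order in 64.4%, 62.0% and 82.2%. The median gap between the ends was 65 bp in ES-1, 80 bp in ES-2 and 84 bp in ES indirect. The other end was unannotated in 48.2% to 52.3% of them, a SINE in 15.3% to 19.2% and a LINE in 7.88% to 10.1%.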

How the data were processed

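RNA contacts were measured by MARIO in ES-1, ES-2 and ES indirect, and the MEF and brain libraries were not used here. The deposited files hold, as other unit values, no measurement: each line gives the mm9 place, strand, sequence and annotation of RNA1 and RNA2, as made by the authors (barcode sorting, removal of repeated molecules, linker search, unique mapping). TopHat2 2.1.1 is named in the submitters' processing notes. Replicates were not pooled, and ES-1 and ES-2 were merged only where stated.

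Lines were counted with Python 3.11.15 and pandas 2.3.3. Ends of at least 20 nt were kept, and 1977852, 816796 and 1473355 distinct read pairs set the precision. Sequences were turned to the RNA strand and compared with NCBIM37 using pysam 0.24.0 and edlib 1.3.9.post1. Tests used scipy 1.17.1: Fisher's exact tests across all units, types or pairs of names, with Benjamini-Hochberg adjustment and a threshold of 0.05. Intervals are 95% Wilson intervals, limits for a count of 0 are 3 counts of the total, and both cover counting error only, since read pairs are not independent molecules. The code was tested on simulated data.

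The members and lists were chosen with earlier results of these data known. Named in the text are the 12 unit classes with most read pairs, partners among the 20 non-ribosomal ones with most, the called pairs with most read pairs, the pairs with the longest complementary run per unit class and library (those without an exact complementary stretch were dropped after their values were seen), and members of the lists. Mrfap1, SNORD74, Scarna9, Rplp0, telomerase RNA and gene names of recurrent sequences were named after their values were seen. Alternatives varied the run length, collapsing, length and distance limits, ribosomal partners, genome match, recurrent sequences and placement at the partner's locus. Some sequences and genes are not reported here.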

Additional observations from a re-analysis of the deposited data

Results flagged for a closer look

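A signal lay outside the simple repeat and low complexity annotation. The 20 nt of recurrent sequence 1 were found in 10920 ends of neither type, next to 13292 ends of these types. Most of the 10920, namely 8260, bear a protein-coding name, and 529 are of LTR type.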

How the results depend on the processing

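Of 233 alternative values, 160 kept their direction and side of the threshold or moved little, 52 moved, 6 lost and 5 gained significance, and 10 reversed. The share of repeat read pairs in ES-1, ES-2 and ES indirect was 0.640%, 2.88% and 0.646% with every line counted, 0.478%, 1.18% and 1.000% with both ends at least 30 nt, 1.99%, 7.57% and 1.93% without ribosomal read pairs, 0.449%, 0.945% and 0.955% with a genome match at both ends and 0.296%, 0.581% and 0.908% without recurrent sequences. Among these settings ES-1 exceeded ES indirect only without ribosomal read pairs, and ES-2 fell below ES indirect with a genome match and without recurrent sequences.

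The share of complementary partners was 6.39%, 6.4%, 7.72% and, for ES-1 with ES-2, 6.39% with runs of at least 8 nt. With at least 16 nt it was 0.743% in ES-1 and 0.862% in ES indirect. Without ribosomal partners it was 2.54% in ES-1, 4.13% in ES-2 and 3.07% in both together. In ES-2 it was 3.25% with both ends at least 30 nt and 3.27% with a genome match. It was 0.669% in ES indirect for simple repeats only. Without read pairs that fit the partner's locus it was 0.418% in ES-2, 0.754% in ES-1 with ES-2 and 3.04% in ES indirect. That setting removes read pairs with a shared unit by construction, so these shares are no test.

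Units called complementary in ES-1 numbered 2 with at least 16 nt, 1 for simple repeats only, and 3 with a genome match, without recurrent sequences or without pairs that fit the partner's locus. In ES-2 they were 10 with 8 nt, 2 with 16 nt and 2 without pairs that fit the partner's locus. In ES-1 with ES-2 they were 3 for simple repeats only and 3 without those pairs.

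The complementary share of both kinds in ES-2 reversed to 61.7% with 8 nt (exact binomial p = 0.00147) and was 28.1% with every line counted (p = 6.17e-04). Without pairs that fit the partner's locus it was 38.2% in ES-1, 38.6% in ES-1 with ES-2 and 56.9% in ES indirect, but this setting removes read pairs with a shared unit by construction, so these values are no comparison of the 2 kinds and the unit calls at this setting are no test either. Leaving out 1 ES library gave 12.6% to 41.9% for ES-1 with ES-2, the higher value (exact binomial p = 0.36) being that without ES-1.

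Without recurrent sequences the ratio of ribosomal repeats was 1.01 in ES-1 and 1.08 in ES-2, that of snoRNAs in ES-1 was 0.782, and that of protein-coding partners in ES-2 was 0.929. Against other ends of the same side, the ratios in ES-2 were 1.06 for ribosomal repeats, 1.11 for ribosomal RNA, 1.01 for protein-coding genes, 0.981 for SINEs, 1.04 for transfer RNAs and 0.769 for small nuclear RNAs, and in ES-1 0.999 for transfer RNAs. For ends that carry their unit, snoRNAs in ES-1 had 0.878, and in ES-2 ribosomal RNA had 0.981, SINEs 1.36 and transfer RNAs 0.877. Types with under 50 partners at a setting were not tested there.

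Called pairs in ES-1, ES-2, ES indirect and ES-1 with ES-2 were 168, 68, 293 and 241 with every line counted and 95, 79, 327 and 143 from 2 read pairs. With repeats named by locus they were 28 in ES-1 and 44 in ES indirect. Leaving out 1 ES library gave 40 to 44. The cause of these changes was not tested. No paired analysis was possible because ES indirect is 1 library and the replicate numbers of ES have no second condition to pair with.

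Few read pairs lie behind many calls by unit: complementary calls outside (A)n, CU-rich and self-complementary units rest on 1 to 6 read pairs.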
